A study of Mus musculus with 6 samples.

Results

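The genes described here are the zinc-dependent histone deacetylases Hdac1, Hdac2, Hdac3, Hdac4, Hdac5, Hdac6, Hdac7, Hdac8, Hdac10 and Hdac11, 10 of the 47643 genes in the count table. Hdac7 was chosen by its measured read counts, which were lower with both antibodies of the study than with isotype, so its comparison with isotype is given as a description without a test, and the other 9 genes stand beside it as the rest of its family. Of the 10 genes, 9 had at least 10 reads over the 6 samples and entered the fit. Hdac11 had 1 read in all and is accounted for by its reads alone.

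Bulk 3′ mRNA sequencing was carried out on splenic CD4+ T cells, gated as Nr4a3-Blue+Red+, of mice that carried the Tg4 T cell receptor transgene, which recognises a peptide of myelin basic protein (MBP), the Nr4a3-Tocky Timer reporter and the Tiger Il10-GFP reporter. All mice, the isotype group included, received 80 μg of [4Y] MBP peptide under the skin, then antibody 24 h later, then 8 μg of the same peptide 30 min after the antibody, and spleens were taken 4 h after the second peptide dose. The antibody was 800 μg of a pool of isotype controls, of anti-PD1 or of anti-Lag3, with 2 samples in each of the 3 groups, which the series describes as biological replicates. The Timer protein is blue when new and matures to red, so the gate held cells with both recent and earlier Nr4a3 activity, and all values refer to that gated population rather than to all T cells of the spleen.

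Histone deacetylases remove acetyl groups from lysines of histones and other proteins, which in chromatin usually goes with reduced transcription. Class I members (Hdac1, Hdac2, Hdac3 and Hdac8) are mostly nuclear enzymes, and Hdac1, Hdac2 and Hdac3 work inside large corepressor complexes. Class IIa members (Hdac4, Hdac5, Hdac7 and Hdac9) have little deacetylase activity of their own, bind MEF2 transcription factors and shuttle out of the nucleus when kinases phosphorylate them and 14-3-3 proteins hold them in the cytoplasm. In thymocytes, HDAC7 is known as a repressor of Nr4a1 that leaves the nucleus after T cell receptor signalling. Class IIb holds Hdac6, a cytoplasmic enzyme that acts on tubulin, and Hdac10, which acts on polyamines, and Hdac11 is the class IV member.

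The position that sets class IIa apart in sequence is an active-site codon, shown here for 3 class IIa and 2 class I genes. It marks the class, does not set Hdac7 apart from Hdac4 and Hdac5, and has no bearing on the read levels. Each line gives 27 coding bases, 5′ to 3′, from the longest complete coding transcript in the GENCODE annotation of GRCm38, and the capitals mark the codon.
Hdac7: ttagagggtggaCATgacctcacggcc
Hdac4: cttgagggaggcCATgacctgacagcc
Hdac5: ctggagggaggcCATgacttgaccgcc
Hdac1: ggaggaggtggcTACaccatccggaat
Hdac2: ggtggaggaggcTACacaatccggaat
The codon reads as histidine in the 3 class IIa genes and as tyrosine in the 2 class I genes. In Hdac7 it is codon 845 of 953, in exon 22 of 25, at chr15:97796158-97796160 on the minus strand. In Hdac4 it lies in exon 23 of 26 at chr1:91945960-91945962 (minus strand), in Hdac5 in exon 26 of 29 at chr11:102196599-102196601 (minus strand), in Hdac1 in exon 9 of 14 at chr4:129518901-129518903 (minus strand) and in Hdac2 in exon 9 of 14 at chr10:36997057-36997059 (plus strand). The libraries read the 3′ end of transcripts, so the counts are of whole genes and do not show which isoform was made.

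Total counts ran from 2107715 to 2648920 per sample, and 3 reads in a sample correspond to 1.11 to 1.44 CPM (the usual counts-per-million unit, with library sizes adjusted by TMM). The CD4 T cell label was not tested by its markers, since markers of other cell types, given below, also had reads. All 8 markers of the CD4 T cell list (Cd3d, Cd3e, Cd3g, Cd4, Cd28, Lck, Trbc1 and Trbc2) had reads, with a summed level of 2243 to 2398 CPM with isotype, 2011 to 2087 with anti-PD1 and 2182 to 2449 with anti-Lag3. Against isotype, 7 of these 8 markers had a negative fold change with anti-PD1 and 3 of 8 with anti-Lag3, and 0 were called. Ddx3y, on the Y chromosome, was present at 88.6 to 108 CPM in all 6 samples, and Xist was read 0 and 7 times with isotype, 0 and 2 times with anti-PD1 and 0 and 1 times with anti-Lag3. Hdac6 and Hdac8 are X-linked, and isotype replicate 2, with the 7 Xist reads, also had the most reads of both; the part of this in their values was not tested. Over all 11877 genes tested, edgeR's quasi-likelihood test (Benjamini-Hochberg adjusted) called 107 genes (0.901%) between anti-PD1 and isotype, 5 (0.0421%) between anti-Lag3 and isotype and 36 (0.303%) between anti-PD1 and anti-Lag3.

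Hdac7 was the most read histone deacetylase gene in every sample. Its level was 554 and 546 CPM in the isotype samples (1175 and 1356 reads), 312 and 278 CPM in the anti-PD1 samples (651 and 680 reads) and 348 and 396 CPM in the anti-Lag3 samples (826 and 1066 reads). The order of the groups was thus isotype, anti-Lag3 and anti-PD1, and no sample of a group overlapped with another group. The means were 550 ± 5.59 CPM with isotype, 295 ± 24.0 with anti-PD1 and 372 ± 33.7 with anti-Lag3 (SD, n = 2 each), so that the mean with anti-PD1 was 0.537 of the isotype mean and that with anti-Lag3 was 0.677 of it. The fitted log2 difference from isotype was -0.90 (SE 0.11) with anti-PD1 and -0.56 (SE 0.11) with anti-Lag3, and both use the same isotype samples. These values chose the gene and are not tested. In bulk RNA of a sorted population, fewer cells of a type and less RNA per cell cannot be told apart.

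Markers of other cell types that a spleen sort could carry were summed in each sample. With anti-PD1 the sums lay below both isotype samples for 3 of the 4 lists, and with anti-Lag3, where no marker of these lists passed the test, for 2 of the 4. The 8 B cell markers summed to 117 and 132 CPM with isotype, 62.8 and 51.1 with anti-PD1 and 82.7 and 122 with anti-Lag3; 6 were tested, all 6 had a negative fold change with each antibody, 2 passed the test as lower with anti-PD1 (0.269% of all genes did) and Cd79a was at 0 reads throughout. The 10 macrophage and monocyte markers summed to 82.5 and 60.4 CPM with isotype, 21.1 and 38.0 with anti-PD1 and 35.0 and 37.5 with anti-Lag3, with 8 of 9 tested below 0 with each antibody and 1 called lower with anti-PD1. The 6 CD8 T and NK cell markers summed to 48.3 to 56.1, 29.8 to 35.0 and 32.7 to 33.7 CPM in the same order of groups, with Klre1 and Klra8 at 0 reads. The 6 erythroid markers, at 45.1 to 51.8, 18.7 to 45.8 and 22.8 to 50.5 CPM, overlapped between isotype and anti-PD1 and between isotype and anti-Lag3. The part of such cells in the level of Hdac7 was not tested.

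The comparison between the antibodies was not used to choose Hdac7. The log2 fold change of Hdac7 in anti-PD1 relative to anti-Lag3 was -0.34 (SE 0.11), with a 95% interval from -0.56 to -0.12, and both anti-PD1 samples lay below both anti-Lag3 samples. The unadjusted p was 0.0033 and the adjusted p was 0.317 by edgeR's quasi-likelihood test (Benjamini-Hochberg adjusted) over all genes, so the difference did not pass the threshold. The adjusted p lay between 0.108 and 0.982 over the alternatives of the edgeR and DESeq2 fits. Over all genes tested, 17.7% had both anti-PD1 samples below both anti-Lag3 samples.

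Hdac7 lies at chr15:97792664-97844502 on the minus strand of GRCm38. Its last 29 bases overlap the end of Slc48a1, a heme transporter gene that runs towards it on the opposite strand, and the strand setting of the counting is not given in the sources used here. Slc48a1 had 202 reads over the 6 samples, against 5754 for Hdac7, and its mean level was 13.3 ± 2.82 CPM with isotype, 12.3 ± 5.18 with anti-PD1 and 16.2 ± 3.85 with anti-Lag3 (SD, n = 2 each), with overlapping groups. No other member with reads shares its last 1000 bases with a gene that had reads in these samples.

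**Figure D1:**
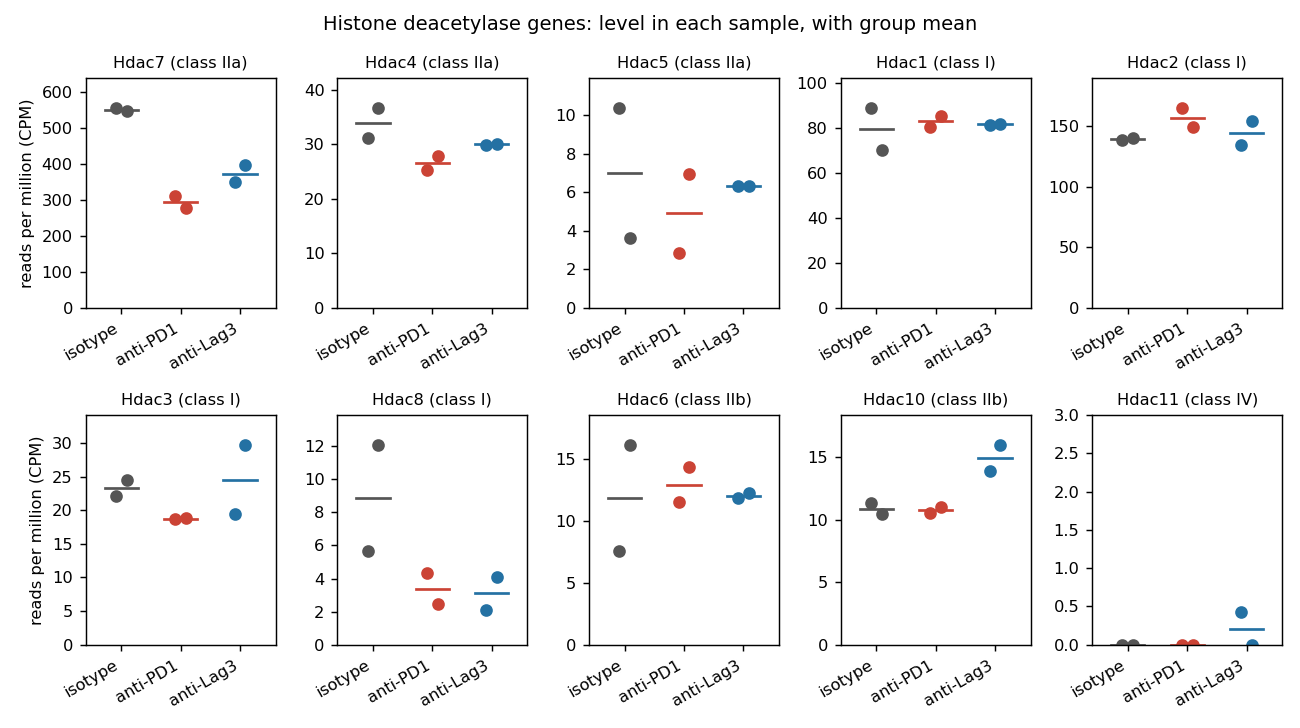
Level of each of the 10 histone deacetylase genes in CPM (each vertical axis from 0 with its own range) in the 3 groups; points are samples and lines are group means. Hdac7 is at a mean of 550 CPM with isotype, 295 with anti-PD1 and 372 with anti-Lag3, while Hdac1 and Hdac2 stay within 70.0 to 88.6 and 135 to 165 CPM.

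The other class IIa genes were far lower than Hdac7. The libraries give about a single read per transcript whatever its length, so CPM values are set side by side here without division by length. Hdac4, which binds the same MEF2 factors, was at 31.1 and 36.6 CPM with isotype, 25.4 and 27.8 with anti-PD1 and 29.9 and 30.1 with anti-Lag3. Both antibody groups lay below the isotype group, and the log2 fold change was -0.35 (SE 0.26, 95% interval -0.87 to 0.17) with anti-PD1 and -0.18 (SE 0.25, 95% interval -0.69 to 0.33) with anti-Lag3. By edgeR's quasi-likelihood test the adjusted p was 0.829 and 0.967.

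Hdac5 was read 22 and 9 times with isotype, 6 and 17 times with anti-PD1 and 15 and 17 times with anti-Lag3, and the groups overlapped. At this depth its interval for anti-PD1 ran from -1.67 to 0.76 on the log2 scale, so neither a fall nor a rise was detectable. Hdac9, the class IIa gene outside the chosen members, had 0 reads in all 6 samples, below the limit of 1.11 to 1.44 CPM per sample that a count of 0 allows. Within class IIa, Hdac7 therefore made up most of the reads, and the low level of its relatives limits how closely they can be compared with it.

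Among class I genes, Hdac2 and Hdac1 were read most. Hdac2, a catalytic subunit of the Sin3, NuRD and CoREST complexes, was at 139 and 140 CPM with isotype, 165 and 150 with anti-PD1 and 135 and 154 with anti-Lag3. The anti-PD1 samples were above the isotype samples, with a log2 fold change of 0.17 (SE 0.14, 95% interval -0.11 to 0.45, adjusted p = 0.854 by edgeR's quasi-likelihood test), and the anti-Lag3 samples fell on either side of isotype at 0.05 (SE 0.14, 95% interval -0.23 to 0.33). Hdac1, which shares these complexes with Hdac2, was at 88.6 and 70.0 CPM with isotype, 80.5 and 85.1 with anti-PD1 and 81.4 and 81.7 with anti-Lag3. Its groups overlapped, and its log2 fold change was 0.07 (SE 0.17, 95% interval -0.28 to 0.41) with anti-PD1 and 0.04 (SE 0.17, 95% interval -0.30 to 0.39) with anti-Lag3. These 2 genes, the deepest after Hdac7, had the narrowest intervals of the 8 other tested members.

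Hdac3, the catalytic subunit of the NCoR-SMRT corepressor, was at 22.1 and 24.6 CPM with isotype, 18.7 and 18.8 with anti-PD1 and 19.4 and 29.7 with anti-Lag3. The anti-PD1 samples were below isotype, with a log2 fold change of -0.32 (SE 0.31, 95% interval -0.94 to 0.30), and the anti-Lag3 samples overlapped with isotype at 0.08 (SE 0.29, 95% interval -0.52 to 0.67). The adjusted p was 0.892 and 0.986 by edgeR's quasi-likelihood test.

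Hdac8, a class I enzyme that removes the acetyl group of the cohesin subunit SMC3, was the member with the largest fitted difference from isotype, at few reads. It had 12 and 30 reads with isotype, 9 and 6 with anti-PD1 and 5 and 11 with anti-Lag3, which are 5.65 and 12.1 CPM, 4.31 and 2.45 CPM, and 2.11 and 4.09 CPM. All 4 antibody samples were below both isotype samples, but the isotype samples differed from each other by more than the lower of them differed from the highest antibody sample. The log2 fold change was -1.41 (SE 0.64, 95% interval -2.70 to -0.12) with anti-PD1 and -1.50 (SE 0.63, 95% interval -2.78 to -0.22) with anti-Lag3. The unadjusted p was 0.0333 and 0.0226 and the adjusted p was 0.538 and 0.766 by edgeR's quasi-likelihood test, so neither difference passed the threshold. Without isotype replicate 2, the sample with 30 reads, the log2 values were -0.75 and -0.85.

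The class IIb genes were low. Hdac6 was at 7.54 and 16.1 CPM with isotype, 11.5 and 14.3 with anti-PD1 and 11.8 and 12.3 with anti-Lag3, so both antibody groups lay inside the isotype range. Hdac10 was at 11.3 and 10.5 CPM with isotype, 10.5 and 11.0 with anti-PD1 and 13.9 and 16.0 with anti-Lag3. The anti-Lag3 samples were above isotype, with a log2 fold change of 0.46 (SE 0.38, 95% interval -0.31 to 1.23, adjusted p = 0.937 by edgeR's quasi-likelihood test). Hdac11 had its 1 read in an anti-Lag3 sample and 0 in the other 5 samples.

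Counted together, 0 of the 8 other tested members passed edgeR's quasi-likelihood test (Benjamini-Hochberg adjusted) in any of the 3 comparisons, against 0.901%, 0.0421% and 0.303% of all genes. DESeq2 also called 0, although it gave no adjusted p for 6 of the 8 between anti-PD1 and anti-Lag3. At an unadjusted p under 0.05 the count was 1 for anti-PD1 and 1 for anti-Lag3 against isotype, Hdac8 in each, and 0 between the antibodies, where 8.12%, 5.96% and 6.53% of all tested genes were under that p. The groups did not overlap for 4 of the 8 with anti-PD1 (3 lower, 1 higher) and for 3 with anti-Lag3 (2 lower, 1 higher), where 37.4% (18.2% lower, 19.2% higher) and 34.6% (17.3% lower, 17.3% higher) of all tested genes showed such separation. Between the antibodies they did not overlap for 3 of 8, all lower with anti-PD1 (Hdac3, Hdac4 and Hdac10), against 35.9% of all genes in either direction and 17.7% lower with anti-PD1. The median log2 fold change of the 8 was -0.16 with anti-PD1, 0.03 with anti-Lag3 and -0.07 between the antibodies, and the median of all tested genes was 0.00 in each. No test compared their changes with that of Hdac7, since the values of Hdac7 against isotype chose it.

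**Figure D2:**
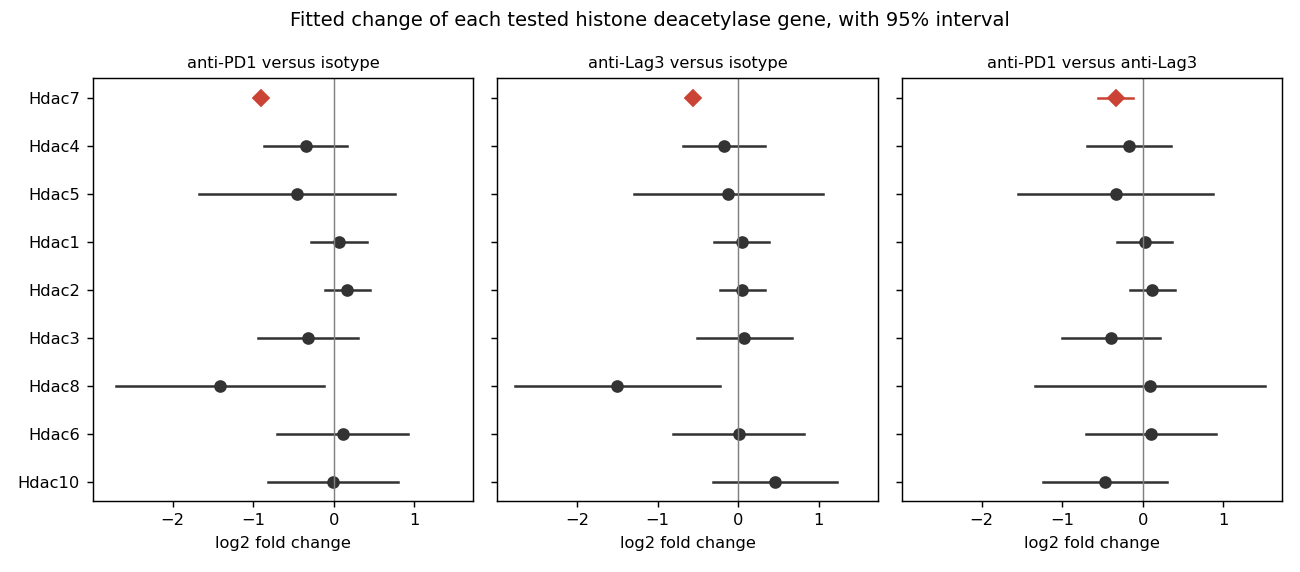
Fitted log2 fold change (horizontal axis) of the 9 tested histone deacetylase genes in the 3 comparisons; bars are 95% intervals of edgeR's fit, and Hdac7 is a red diamond, drawn without a bar against isotype because these contrasts chose it. Hdac7 sits at -0.90 and -0.56 against isotype, and among the other 8 genes the bars are narrowest for Hdac1 and Hdac2 and widest for Hdac5 and Hdac8.

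The make-up of the family's reads followed from these levels. Hdac7 took 63.7% (exact Clopper-Pearson 95% interval 61.4 to 65.9) and 63.5% (61.4 to 65.6) of the reads of the 10 genes in the isotype samples, 49.5% (46.7 to 52.2) and 46.8% (44.2 to 49.4) in the anti-PD1 samples, and 53.7% (51.2 to 56.3) and 54.2% (52.0 to 56.4) in the anti-Lag3 samples. These intervals cover counting error only and not the spread between replicates. The same reads chose Hdac7, so its intervals are a description and no test between groups. The share of Hdac2 was 16.1% ± 0.220 with isotype, 25.7% ± 0.672 with anti-PD1 and 20.9% ± 0.250 with anti-Lag3 (SD, n = 2 each). The share of Hdac8 was 1.03% ± 0.534, 0.548% ± 0.192 and 0.442% ± 0.166 in the same order (SD, n = 2 each).

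In CPM the other 9 members summed to 316 and 314 with isotype, 319 and 316 with anti-PD1 and 300 and 334 with anti-Lag3. The sum over all 10 members was 864 ± 7.12 CPM with isotype, 612 ± 25.8 with anti-PD1 and 689 ± 58.0 with anti-Lag3 (SD, n = 2 each). The totals thus differed mostly through the Hdac7 reads, while the group means of the rest lay between 315 and 317 CPM. That sum holds differences of opposite sign. With anti-PD1 against isotype, 3 of the 8 other tested members had a fold change above 0 and 5 below. The mean of Hdac2 was 140 CPM with isotype and 157 with anti-PD1. Those of Hdac4 were 33.9 and 26.6, of Hdac3 23.4 and 18.7 and of Hdac8 8.87 and 3.38. Within a sample, where scaling between libraries plays no part, the ratio of Hdac7 to Hdac2 reads was 3.98 and 3.90 with isotype, 1.89 and 1.86 with anti-PD1 and 2.59 and 2.57 with anti-Lag3.

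**Figure D3:**
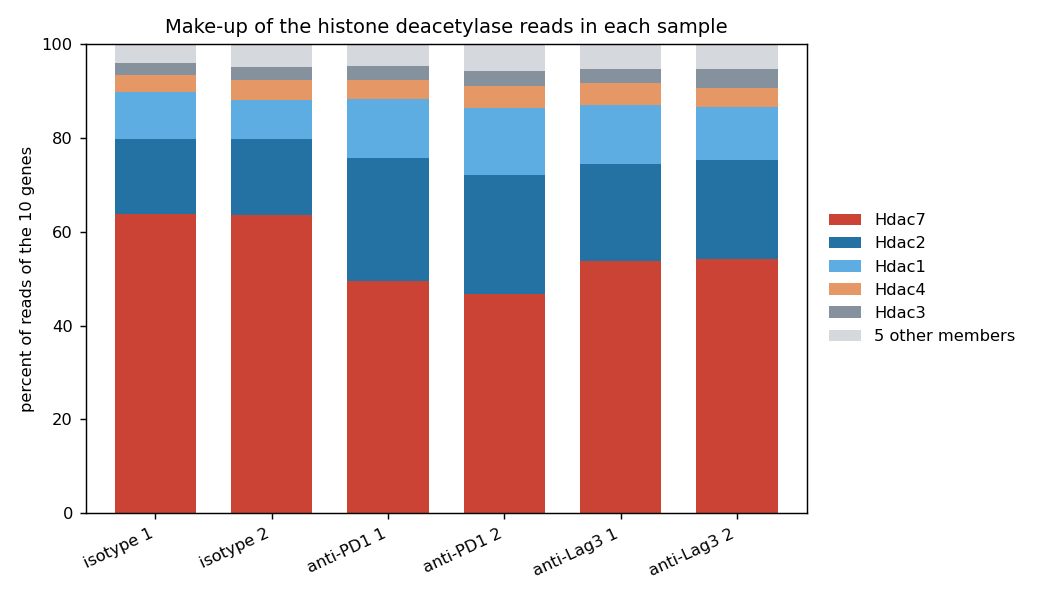
Percent of the reads of the 10 histone deacetylase genes (vertical axis, 0 to 100) that belongs to each gene in each of the 6 samples; colours are genes and the 5 least read members are drawn together. The Hdac7 segment is 63.5% to 63.7% with isotype, 46.8% to 49.5% with anti-PD1 and 53.7% to 54.2% with anti-Lag3.

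The genes around the deacetylases were taken from lists of their partners and counterparts, 80 genes of which 76 were tested. By edgeR's quasi-likelihood test (Benjamini-Hochberg adjusted) over all genes, 0 of the 76 were called in each of the 3 comparisons (unadjusted p under 0.05 for 10, 3 and 8 of them with anti-PD1 against isotype, anti-Lag3 against isotype and anti-PD1 against anti-Lag3), and DESeq2 also called 0 in each. Over all genes tested, 0.901%, 0.0421% and 0.303% were called and 8.12%, 5.96% and 6.53% had an unadjusted p under 0.05. The median log2 fold change of the 76 lay between -0.01 and 0.01 in all 3 comparisons. The genes with the smallest unadjusted p in each list are named with their values.

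The kinases that phosphorylate class IIa deacetylases (13 genes, 11 tested) had a median log2 fold change of 0.18 with anti-PD1 and 0.07 with anti-Lag3, with 6 above 0 in each. Sik3, a salt-inducible kinase, was read 57 and 65 times with isotype, 105 and 116 times with anti-PD1 and 62 and 63 times with anti-Lag3. The anti-PD1 samples stood above the 4 others, with a log2 fold change of 0.88 (SE 0.24, adjusted p = 0.0703 by edgeR's quasi-likelihood test) against isotype and 0.98 (SE 0.24, adjusted p = 0.0626) against anti-Lag3, both short of the threshold. The first passed with anti-Lag3 replicate 1 or 2 left out (adjusted p = 0.0446 and 0.0449 by the same edgeR test) and with only the 4 samples compared (0.0479), and its adjusted p lay between 0.0446 and 0.429 over all alternatives. The second passed with the replicate block (adjusted p = 0.0466 by the same edgeR test) and with no filter beyond 1 read (0.0444), and its adjusted p lay between 0.0444 and 0.583 over all alternatives. Camk2d, a calcium- and calmodulin-dependent kinase, was at 65.6 ± 9.14 CPM with isotype, 96.9 ± 10.4 with anti-PD1 and 69.8 ± 10.4 with anti-Lag3 (SD, n = 2 each), a log2 fold change of 0.57 with anti-PD1 (SE 0.18, adjusted p = 0.146 by the same edgeR test).

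The 14-3-3 genes (7, all tested) had medians of -0.05 with anti-PD1 and 0.10 with anti-Lag3. Ywhah was at 92.8 ± 1.42 CPM with isotype, 124 ± 1.98 with anti-PD1 and 118 ± 12.9 with anti-Lag3, while Ywhab was at 366 ± 24.1, 305 ± 2.35 and 377 ± 25.7 CPM (SD, n = 2 each). Neither passed the test, with adjusted p of 0.310 and 0.463 against isotype with anti-PD1 by edgeR's quasi-likelihood test. Of the MEF2 factors (4 genes, 3 tested), the DNA-binding partners of class IIa proteins, Mef2d was at 50.1 ± 6.49 CPM with isotype, 48.5 ± 0.187 with anti-PD1 and 39.6 ± 11.3 with anti-Lag3, with overlap, and Mef2c was low at 5.81 ± 0.889, 3.14 ± 3.08 and 2.46 ± 2.29 CPM (SD, n = 2 each).

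The NR4A receptors are of interest because Nr4a1 is a known HDAC7 target in thymocytes and because the Timer used for the gate reports Nr4a3 activity. By flow cytometry, the study found more blue Timer protein in responding cells with anti-PD1 than with isotype or anti-Lag3. That is a different measure from the Nr4a3 reads given here. Nr4a3 was read 109 and 112 times with isotype, 62 and 72 times with anti-PD1 and 97 and 99 times with anti-Lag3. Both antibody groups lay below isotype in CPM, with a log2 fold change of -0.70 (SE 0.23, adjusted p = 0.195 by edgeR's quasi-likelihood test) with anti-PD1 and -0.31 (SE 0.22, adjusted p = 0.915) with anti-Lag3. Nr4a2 was read 19 and 27 times, 44 and 30 times and 21 and 33 times in the same order of groups, a log2 fold change of 0.73 with anti-PD1 (SE 0.40, adjusted p = 0.686 by the same test). Nr4a1 itself had a log2 fold change against isotype of -0.21 with anti-PD1 (SE 0.25, adjusted p = 0.930 by the same test). With anti-Lag3 it was 0.11 (SE 0.24, adjusted p = 0.969 by the same test). Between anti-PD1 and anti-Lag3 it was -0.32 (SE 0.24, adjusted p = 0.906 by the same test). None of the 3 receptors passed the test in any comparison.

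Of the corepressor complexes that hold class I deacetylases, the median log2 fold change with anti-PD1 and anti-Lag3 against isotype was -0.15 and -0.12 for NCoR-SMRT, 0.00 and -0.09 for NuRD, -0.03 and -0.02 for Sin3, and 0.07 and -0.03 for CoREST. In the NCoR-SMRT list (5 genes, HDAC3), 4 of 5 were below 0 with anti-PD1 against isotype and 5 of 5 against anti-Lag3, with 0 called. The median of all tested genes was 0.00 in both comparisons, and other short lists also leaned to a side. With anti-Lag3 against isotype, 6 of 7 sirtuins were above 0 and 1 below. Between anti-PD1 and anti-Lag3, 9 of 11 histone acetyltransferases were above 0 and 2 below. Tbl1x was at 133 ± 3.05 CPM with isotype, 96.9 ± 1.17 with anti-PD1 and 122 ± 3.07 with anti-Lag3, and Tbl1xr1 was at 67.6 ± 1.69, 54.0 ± 1.14 and 59.2 ± 0.837 CPM (SD, n = 2 each). In the NuRD list (9 genes, HDAC1 and HDAC2), the helicase gene Chd3 was at 213 ± 20.2, 156 ± 1.59 and 180 ± 14.6 CPM, a log2 fold change of -0.45 with anti-PD1 (SE 0.13, adjusted p = 0.0929 by edgeR's quasi-likelihood test), which passed with anti-Lag3 replicate 1 or 2 left out (adjusted p = 0.0393 and 0.0448, and up to 0.620 over all alternatives of the fit), and Chd4 was at 895 ± 56.4, 898 ± 56.2 and 783 ± 36.5 CPM (SD, n = 2 each). In the Sin3 list (14 genes) Sin3b was at 46.7 ± 11.4, 63.7 ± 3.39 and 62.5 ± 2.5 CPM and Sap18 at 18.3 ± 1.95, 15.0 ± 7.92 and 26.8 ± 7.43 CPM (SD, n = 2 each). In the CoREST list (6 genes) the demethylase gene Kdm1a was at 93.4 ± 13.2, 92.2 ± 0.336 and 84.5 ± 9.18 CPM (SD, n = 2 each), and Rcor2 had at most 9 reads in a sample.

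The enzymes with opposing or parallel activity had 0 calls as well. The histone acetyltransferases (11 genes) had medians of 0.00 with anti-PD1 and -0.11 with anti-Lag3. Ncoa3 was at 55.9 ± 8.98 CPM with isotype, 70.4 ± 14.9 with anti-PD1 and 53.2 ± 3.61 with anti-Lag3, and Ncoa1 at 20.2 ± 0.715, 16.3 ± 8.79 and 14.1 ± 2.66 CPM (SD, n = 2 each). Of the 7 sirtuins, which use NAD instead of zinc, Sirt1 was at 22.9 ± 6.23, 29.9 ± 10.4 and 26.6 ± 6.0 CPM (SD, n = 2 each) with overlap, and Sirt3 was read 0 and 2 times with isotype, 4 and 13 times with anti-PD1 and 5 and 6 times with anti-Lag3, too few for a fold to be given.

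**Figure D4:**
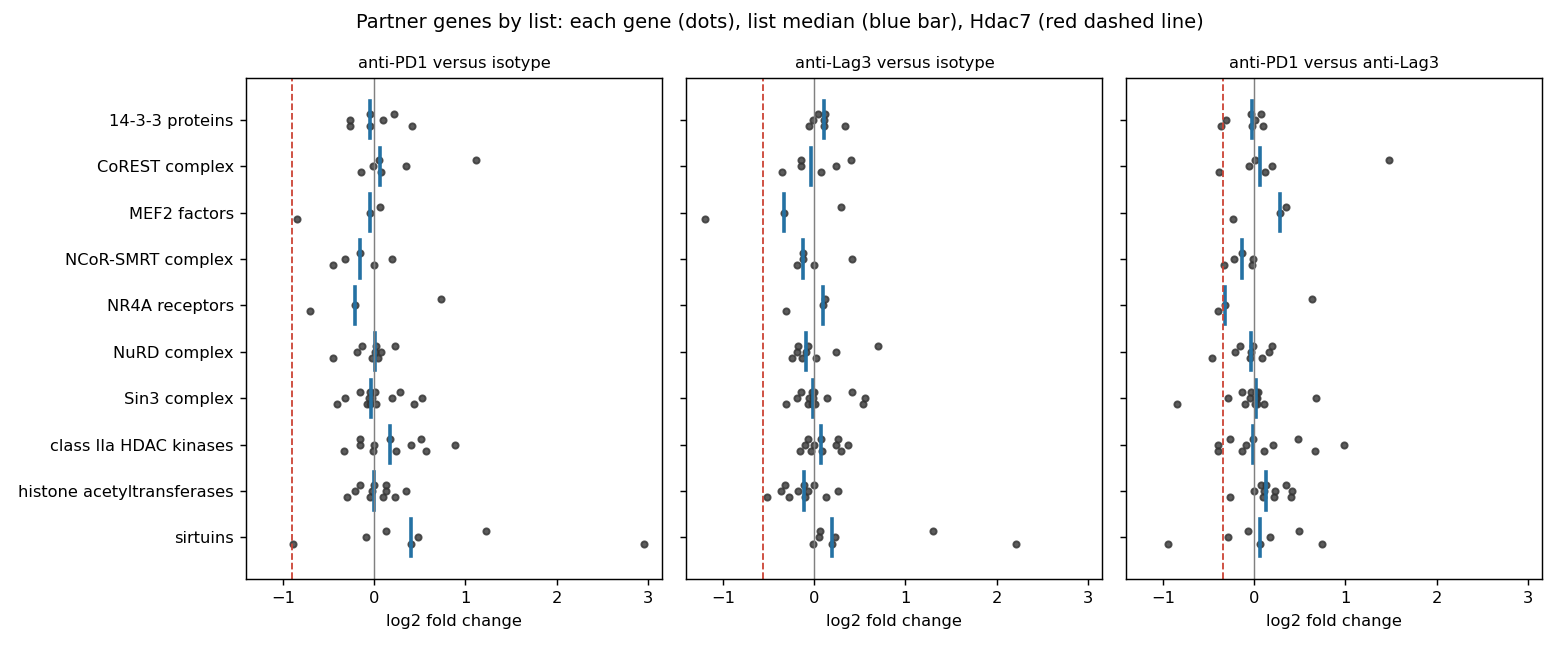
Log2 fold change (horizontal axis) of the 76 tested partner genes in 10 lists (vertical axis) for the 3 comparisons; dots are genes, blue bars are list medians and the red dashed line is Hdac7. None of the 76 genes passed the test, and Hdac7 is drawn for its position only, since the isotype comparisons chose it; the sirtuin at the far right is Sirt3, with 0 and 2 reads in the isotype samples.

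The genes whose log2 CPM over the 6 samples was most like that of Hdac7, among 3492 tested genes with at least 100 reads per sample on average, were Dnajc8 (Pearson r = 0.98), Trib1 (0.98), Idh3b (0.97), Secisbp2 (0.97) and Selenoh (0.97). Of the 3492 genes, 46 had r above 0.9, and the 6 points fall in 3 groups of 2, so r is a description of these libraries and carries no p. Dnajc8, a spliceosome-associated gene, was at 491 and 462 CPM with isotype, 392 and 367 with anti-PD1 and 396 and 416 with anti-Lag3, and its log2 fold change was -0.33 with anti-PD1 and -0.23 with anti-Lag3. The log2 fold changes of these 5 genes with anti-PD1 ran from -0.51 to -0.30, beside -0.90 for Hdac7. Their negative sign follows from the choice, since they were picked by likeness to Hdac7, which was chosen by its lower counts. No comparison of size is drawn from them. Of the other members deep enough to enter this ranking, Hdac1 had r = -0.29 and Hdac2 had r = -0.52 with Hdac7.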

How the data were processed

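Libraries were made by the study with the Lexogen QuantSeq 3′ forward kit from RNA of sorted cells, 2 samples for each of the isotype, anti-PD1 and anti-Lag3 groups, grouped by the treatment given in the sample labels. The authors used Bbduk for trimming, STAR (2.5.2a, per the submitters' processing notes) for alignment to GRCm38 and HTSeq-count for gene counts. The deposited counts are whole numbers without normalization, and the annotation release and strand setting are not given in the sources used here. A second deposited table gives log2-scale rlog values from DESeq2 for 11877 genes. These are shrunken towards the mean and were used only as an alternative. The authors left out a further replicate batch as an outlier; it was not used here.

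The 11877 genes with at least 10 reads over the 6 samples were fitted together with edgeR 4.0.16 in R 4.3.3 (TMM scaling, glmQLFit and glmQLFTest, 3 groups, common dispersion 0.0160), with Benjamini-Hochberg adjustment of p over all genes tested and a threshold of 0.05. CPM values use TMM-scaled library sizes. Intervals are 95% intervals of the fitted log2 fold change, and shares have exact binomial intervals. The fits were tested on simulated data. GENCODE annotation of GRCm38 gave names for 47224 of 47643 identifiers, positions (1-based) and the coding sequences. Total counts were 2107715 to 2648920 per sample, and genes with few reads are the least precise. The replicates of each group differed beyond counting noise (chi-square of 2.65 to 3.29 per degree of freedom) and were kept as separate samples.

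The members, the partner lists and the marker lists were chosen with earlier results of these data known. Named were every member, of each partner list the genes called in any comparison and the 2 with the smallest unadjusted p against isotype, and the 5 genes most correlated with Hdac7; of the marker lists, counts, summed levels and markers at 0. Slc48a1 and Ddx3y were added as checks after values were seen, and Nr4a1 was added as the known HDAC7 target. Alternatives were DESeq2 1.42.0, DESeq2 size factors in edgeR, no filter beyond 1 read, only the 4 samples compared, each replicate left out, the replicate number as a block, and, chosen after seeing the data, the deposited rlog values.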

Additional observations from a re-analysis of the deposited data

How the results depend on the processing

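Hdac7 kept its direction in the 3 comparisons under all alternatives run. The comparisons with isotype chose Hdac7, so its kept direction there is a description and no independent check. Leaving out each replicate in turn gave log2 values from -0.98 to -0.82 for anti-PD1 against isotype, -0.65 to -0.48 for anti-Lag3 against isotype and -0.42 to -0.25 for anti-PD1 against anti-Lag3. The rlog values, an alternative chosen after seeing the data, gave -0.69 and -0.44 against isotype, smaller because rlog shrinks differences. The other 8 tested members had 0 calls under each alternative, with a smallest adjusted p of 0.371, 0.651 and 0.682 in the 3 comparisons. With a replicate left out, values ranged for anti-PD1 against isotype from -0.10 to 0.24 (Hdac1), -1.25 to 0.46 (Hdac5), -0.31 to 0.78 (Hdac6) and -0.066 to 0.048 (Hdac10), with a median of the 8 from -0.19 to 0.02; for anti-Lag3 against isotype from -0.12 to 0.23 (Hdac1), -0.044 to 0.14 (Hdac2), -0.26 to 0.34 (Hdac3), -0.71 to 0.80 (Hdac5) and -0.41 to 0.67 (Hdac6). For anti-PD1 against anti-Lag3 they ranged from -0.018 to 0.059 (Hdac1), -0.35 to 0.64 (Hdac8), -1.12 to 0.13 (Hdac5) and -0.065 to 0.25 (Hdac6). Sirt1 ranged from -0.018 to 0.71 with anti-PD1 and Kdm1a from -0.28 to 0.018 with anti-Lag3, both against isotype. Among these reversals no value passed the test, and the cause was not tested.

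Of the partner genes, 1 (Sik3) was called between anti-PD1 and isotype with only the 4 samples compared and between 0 and 2 (Sik3 and Chd3) with a replicate left out, and 1 (Sik3) between anti-PD1 and anti-Lag3 with no filter beyond 1 read and 1 (Sik3) with the replicate block. The calls over all genes with a replicate left out ran from 46 to 161 for anti-PD1 against isotype, from 0 to 16 for anti-Lag3 against isotype and from 3 to 49 for anti-PD1 against anti-Lag3. DESeq2 called 72, 1 and 16 genes, no filter beyond 1 read gave 149, 20 and 58, and only the 4 samples compared gave 141, 0 and 36. The percentages of all genes called, set beside the members, therefore move with the setting, and the cause was not tested.

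The replicate numbers of the labels were used in an alternative with a replicate block. Deviations of same-numbered samples from their group means had correlations of 0.04, 0.03 and -0.05 over 7508 genes, so they did not deviate together, and the labels do not say whether a number marks a shared sort; the reported fit has no block. With the block the values of Hdac7 were -0.90, -0.56 and -0.34, the 8 other members had 0 calls, and the calls over all genes were 144, 6 and 46. With 2 samples a group, a lone sample left in a group was assumed to vary like the other groups. Depth limits Hdac5, Hdac6, Hdac8 and Hdac10, with under 50 reads in each sample, and nothing can be said of a change in Hdac9 or Hdac11.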
